A study of Mus musculus with 6 samples.

Results

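Sequence variants in the natural killer and C-type lectin receptor genes were examined in exomes of whole bone marrow and matched ear from 3 mice. The members were the genes whose symbol starts with Klr, Clec or Cd209 and that held a variant inside the gene, from 5′ UTR to 3′ UTR with introns, in any list of the study. That rule gave 47 genes of the 18232 genes with such a variant. All animals carried Srsf2 P95H beside a normal allele, a change in a splicing factor that recurs in myelodysplastic syndromes, on a C57BL/6 background, and had received tamoxifen to switch on the Cre recombinase. Tissue came from the time when the animals became moribund, which the protocol places 50 to 60 weeks after tamoxifen, while the sample labels give the same figures as an age. Mice 54 and 108 were males, and mouse 136 a female. The labels name the R26CreERT2 driver, which acts in most tissues, for all animals. The protocol instead gives 1 of the 3 the hScl-CreERT driver, directed to blood stem and progenitor cells, together with R26eYFP, without saying which animal. The ear therefore shares the animal's germline and possibly the recombined allele with the marrow. Animals without the mutation were not analysed here, so nothing below can be set against wild type.

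C-type lectin receptors are transmembrane proteins with a fold first known for binding sugars. In the mouse the natural killer gene complex on chromosome 6 holds most of the Klr genes: the Ly49 receptors (Klra), which read MHC class I, the NKR-P1 receptors (Klrb) with their Clec2 ligands, and the NKG2 receptors (Klrc, Klrk1) with their partner chain CD94 (Klrd1). Clec4 and Clec7a receptors of myeloid cells bind fungal and bacterial sugars and damaged cells, and the Cd209 genes are the mouse relatives of the human dendritic-cell receptor DC-SIGN. Exome data carry no expression, so the values here are variant reads in DNA and not receptor levels.

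The 46 members of the all-variant lists held 126 distinct sites, of which 101 were single nucleotide changes and 25 were insertions or deletions. Cd209e, a further Cd209 gene, entered only through a somatic call. Introns held 105 of the sites, 3′ UTRs 11, coding sequence 8 and 5′ UTRs 2. Of the coding sites 6 were synonymous and 2 were missense, and 0 were of high impact, the class of stop, frameshift and splice-site changes. The 2 protein-altering sites made up 1.59% of the member sites, beside 4.89% of the 150315 sites inside any gene. RefSeq holds 74 mouse symbols with these prefixes, and 27 of them had no entry in any list. Among those 27 were Klrd1, Klrc1 (the inhibitory chain NKG2A), Klrb1c (the NK1.1 antigen) and Clec2d (a ligand of NKR-P1 receptors). The lists give no depth at positions without a call, so a gene without a site cannot be read as matching the reference throughout. Klra16 and Klra23, also among the 27, have RefSeq positions at -122.1 and -121.7 Mb from the start of Klrg1, far from the other Ly49 genes. Whether every one of the 27 symbols could receive an entry was not tested.

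The member sites numbered 27 in the marrow and 43 in the ear of mouse 54, 29 in the marrow and 29 in the ear of mouse 108, and 35 in the marrow and 23 in the ear of mouse 136. Marrow held fewer sites in mouse 54, as many in mouse 108 and more in mouse 136. The log2 ratio of marrow over ear averaged -0.02 ± 0.64 (SD, n = 3 animals), so the spread between animals exceeded the difference between tissues. The same ratio for the full lists, which held 24915 to 79759 sites, averaged -0.10 ± 0.48 (SD, n = 3).

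**Figure D1:**
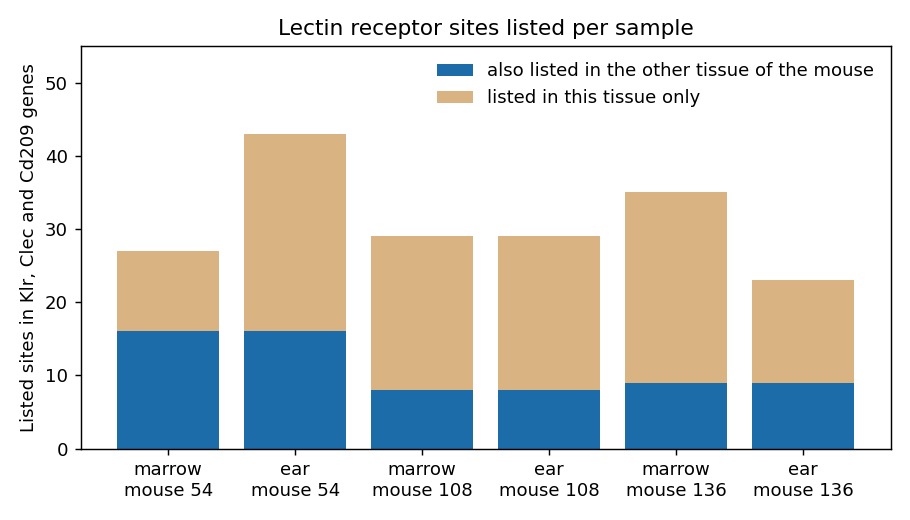
Number of sites in Klr, Clec and Cd209 genes (vertical axis) in each of the 6 samples, split into sites also listed in the other tissue of the animal and sites listed in that tissue only. The shared part is 16 sites in mouse 54, 8 in mouse 108 and 9 in mouse 136, and the part of a single tissue runs from 11 to 27.

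Most member sites were seen once. Of the 126 sites, 96 (76.2%) stood in a single list, beside 49.3% of all sites in genes, and 4 stood in all 6 lists. A site counted as shared when the marrow and the ear of the same animal both listed it, and the 3 animals held 11 ± 4.4 shared member sites (SD, n = 3). The share of a sample's member sites that its other tissue also listed ran from 25.7% to 59.3%, against 46.2% to 76.5% for all sites in genes. Of 120 entries in a single tissue, 68 (56.7%) rested on 3 or fewer variant reads, beside 41.0% of such entries over all genes. C to A changes, read from the pyrimidine base, made up 28 of 93 single nucleotide entries of a single tissue (30.1%, beside 21.9% over all genes) and 0 of 52 shared entries, against 13562 of 148498 shared entries over all genes. The median depth ran from 17 to 46 at member sites of a sample and 24 to 37 at all sites in genes, and the part of depth in these shares is not tested here. Member entries held 2 to 321 reads of both alleles together, with a median of 18, and 86 of the 186 entries reached 20 reads.

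A shared site stood in 10 of the 47 members (21.3%), beside 44.6% of all genes in the lists. These were Klrg1 and Klrc3 among the natural killer receptors, Clec4f, Clec4n, Clec4a2 and Clec7a among the myeloid lectins, Cd209a, and the outlying Clec14a, Clec16a and Clec18a. Apart from those set to be reported whatever their values, these genes are named because their values were seen. The shared sites numbered 23, of which 19 were single nucleotide changes and 4 were insertions or deletions. Sharing is counted here over whole entries. At a repeat of Clec1a in mouse 108 and at a repeat of Clec1b in mouse 54, both tissues also held the same allele, which the ear entry lists together with a further allele, so 2 more members share an allele between tissues.

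The Ly49 genes held 16 sites in 8 members and 0 were shared by marrow and ear. Klra1 (Ly49A, an inhibitory receptor for MHC class I) had 5 changes within 17 neighbouring bases of intron 5, all in the marrow of mouse 136, with 3 or 4 variant reads of 13 to 18. Klra4 (Ly49D, an activating receptor) had a 3′ UTR change in the ear of mouse 136, with 6 of 31 reads, and an intronic change in the ear of mouse 108, with 7 of 13 reads at a mapping quality of 26. Klra8 (Ly49H, the activating receptor for a cytomegalovirus protein) had an intronic change in the ear of mouse 136, with 3 of 12 reads at a mapping quality of 31. The pseudogene Klra11-ps had the deepest pair of this group, in the ear of mouse 54, with 75 of 239 and 70 of 228 variant reads, and neither position appeared in the list of that animal's marrow. Ly49 genes are close copies of each other, so a read may have been placed on the wrong copy, and that part is not tested here. Mapping quality in this group ran from 26 to 42, where 42 is the highest value at any member site.

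The NKR-P1 genes held 9 sites in 4 members, again with none shared. Klrb1 had 4 changes within 7 bases in the marrow of mouse 108, each with 2 variant reads of 11 to 15. Klrb1b (an inhibitory receptor whose ligand is Clec2d) had the best covered change of this group, a C to A change in intron 3 in the ear of mouse 136 with 8 of 75 reads, or 10.7% (95% Clopper-Pearson interval 4.7% to 19.9%). Its variant reads were 4 on each strand. The 3 Clec2 members, Clec2g, Clec2h and Clec2i, held 6 sites with 2 to 7 variant reads each, none of them shared.

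Among the NKG2 genes, Klrk1 (NKG2D, the activating receptor for stress ligands) had a C to A change 45 bases into the 3′ UTR in the ear of mouse 54. The change appeared in 12 of 109 reads, or 11% (95% interval 5.8% to 18.4%), with 6 variant reads on each strand, and the marrow list of that animal did not hold it. Klrc2 (NKG2C, an activating receptor) had a single intronic entry with 2 of 11 reads. Klrc3 (NKG2E) held the only shared site of a Klr gene inside the natural killer gene complex, a change in intron 3 of mouse 136 at position 129641319 of chromosome 6. Its variant share came to 17.1% in marrow (6 of 35 reads) and 18.2% in ear (6 of 33 reads), and all 12 variant reads lay on the forward strand. Those shares lie below the level of a heterozygous germline site, and 54 of the 56 reference reads also lay on the forward strand.

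Klrg1 stood apart from the complex. KLRG1 is an inhibitory receptor of mature natural killer and memory T cells that binds cadherins. Its change in intron 3, a T to G change on the forward strand at position 122273730 of chromosome 6, appeared in all 6 samples. The variant share came to 46.8% in the marrow and 40.8% in the ear of mouse 54, 60.0% and 58.2% in mouse 108, and 49.1% and 45.5% in mouse 136, from 33 to 71 reads each. All 6 samples thus lay near the level of a heterozygous site, and the tissues overlapped. The share averaged 52.0% ± 7.0 in marrow and 48.2% ± 9.0 in ear (SD, n = 3 each). All 156 variant reads and all 157 reference reads lay on the reverse strand, so the strands do not separate the alleles.

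The Klrg1 site formed part of a dense stretch of shared variation. From 118 Mb of chromosome 6 to position 122644717, the last site of the stretch found in all 6 lists, mice 54, 108 and 136 held 558, 567 and 578 shared single nucleotide sites. That is 120 to 124 per Mb, or 11.4 to 11.8 for each of the 49 RefSeq coding genes there, and 498 of the sites were in all 6 lists. The stretch ended 277 kb before Clec4a1. Over the 9 genes of the Clec4 group that follow, in 0.37 Mb, the animals held 0, 2 and 1 shared single nucleotide sites. The natural killer gene complex, taken from Klrb1a at 128.6 Mb to Klra1 at 130.4 Mb with 42 coding genes, held 1, 1 and 2. In each animal the number for each coding gene thus came to 0.024 to 0.048 in the complex. The 5.3 Mb between the Clec4 group and the complex, with 87 coding genes, held 16, 22 and 27. That is 0.18 to 0.31 for each coding gene, also far below the dense stretch. The end of the dense stretch was set from the same lists that are counted here. These counts have no test, and the captured length of each interval is not used.

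**Figure D2:**
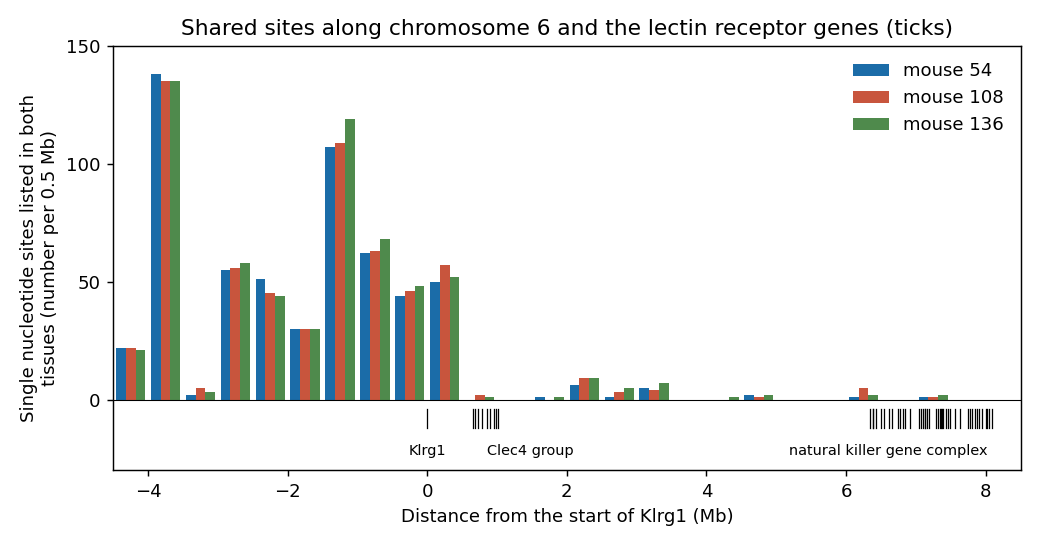
Number of single nucleotide sites listed in both marrow and ear of an animal, for each 0.5 Mb of chromosome 6, against distance from the start of Klrg1. Bars are the 3 animals and ticks below the axis mark the starts of RefSeq Klr and Clec genes: Klrg1 lies inside the dense stretch, with 50 to 57 shared sites in the window that starts there, while windows over the natural killer gene complex hold 0 to 5. Windows between the Clec4 group and the complex hold 0 to 9.

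Outside that stretch 29 member sites stood in 2 or more lists, 22 of them single nucleotide changes and 7 insertions or deletions. Of the 25 distinct insertion or deletion alleles in member genes, 23 changed the length of a dinucleotide repeat of 10 to 26 units, 18 to fewer units and 5 to more, at 16 positions in 12 genes. The repeats of Clec4f (a receptor of liver macrophages) and Clec4n (Dectin-2, which binds fungal mannans) are shown because among the repeats they were listed in the most samples. That of Clec16a is shown because the marrow and ear of mouse 108 listed different alleles. Each is an intronic sequence as deposited, on the forward strand of GRCm38 from 5′ to 3′. Capitals in the reference mark the units that the longest deletion lacks. The units are identical, so the lost ones cannot be told apart from the rest.
Clec4f reference, chr6:83652298: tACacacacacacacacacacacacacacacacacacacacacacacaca
Clec4f variant: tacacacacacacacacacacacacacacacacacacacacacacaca
Clec4n reference, chr6:123230317: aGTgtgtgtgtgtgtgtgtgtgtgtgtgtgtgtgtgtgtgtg
Clec4n variant: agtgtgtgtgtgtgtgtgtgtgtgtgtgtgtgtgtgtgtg
Clec16a reference, chr16:10630588: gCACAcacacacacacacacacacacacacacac
Clec16a variant of 2 bases less: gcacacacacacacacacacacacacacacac
Clec16a variant of 4 bases less: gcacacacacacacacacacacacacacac

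In Clec4f the shorter allele, 12 bases into intron 4, stood in all 6 lists. Its share came to 28.1% in marrow and 16.9% in ear of mouse 54, 18.9% and 28.3% in mouse 108, and 28.0% and 24.3% in mouse 136, from 32 to 59 reads. The marrow share exceeded that of ear in mice 54 and 136 and fell short of it in mouse 108, and no sample reached the level of a heterozygous site. In Clec4n the shorter allele stood in 5 lists, all but the marrow of mouse 54, at 24.2% to 37.7% of 19 to 53 reads. At the Clec16a repeat the allele of 2 bases less appeared in the ear of mouse 54 (20%, 6 of 30 reads). The marrow of mice 108 (13.3%, 4 of 30 reads) and 136 (31.8%, 7 of 22 reads) also listed it. The ear of mouse 108 listed the allele of 4 bases less (23.5%, 4 of 17 reads). All these reads lay on the forward strand, and the contrast within mouse 108 rests on 4 variant reads in each tissue. Clec1b, the platelet receptor CLEC-2, had alleles of 2 bases less, 2 more and 4 more at a single TC repeat of 23 units, from 5 to 15 reads. Clec7a (Dectin-1, the beta-glucan receptor) had a repeat in its 3′ UTR with a shorter allele in both tissues of mouse 136 (21.1% of 19 reads in marrow and 26.3% of 19 reads in ear) and in the ear of mouse 54 (21.7% of 23 reads).

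The other myeloid lectins had thin support. Clec4d (MCL) had a synonymous change, p.Gly151Gly, in the ear of mouse 108 with 4 of 25 reads, and Clec4e (Mincle, its partner for fungal glycolipids) an intronic change in the marrow of mouse 136 with 2 of 13 reads. Clec9a (DNGR-1, which binds actin of dead cells) had 2 intronic entries with 2 variant reads each, and Clec12a (an inhibitory receptor for uric acid crystals) had 1 with 3 of 26 reads. In Clec4n, mouse 108 listed an intronic change next to a second repeat in both tissues, with 4 of 16 reads in marrow and 5 of 14 in ear. In Clec4a2 the same animal listed an insertion of 2 bases at the edge of a TC repeat, with 10 of 43 reads in marrow and 6 of 20 in ear, at mapping qualities of 30 and 26.

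In the Cd209 group the single shared site lay in Cd209a (the gene whose product is also called CIRE), 18 bases into intron 1 at position 3748843 of chromosome 8. Animal 108 carried it at 49.6% in marrow (134 of 270 reads, 95% interval 43.5% to 55.8%) and 46.4% in ear (149 of 321 reads, 40.9% to 52.0%), with variant reads on both strands. The lists without it were those of mice 54 and 136. Cd209b, a receptor of marginal-zone macrophages, had 2 sites with 2 of 13 and 4 of 26 reads in the ears of mice 54 and 108. Cd209g had 1 site with 2 of 15 reads.

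Clec14a, a receptor of endothelial cells, held the only protein-altering member sites, and all were in mouse 54. The gene lies on chromosome 12 at 58264720 to 58269258 and its 7 sites fell within 870 bases of its single coding exon. The 2 missense sites were p.Thr166Ala, at 55.6% in marrow (40 of 72 reads) and 53.8% in ear (78 of 145 reads), and p.Ile349Val, at 59.8% in marrow (67 of 112 reads) and 48.0% in ear (94 of 196 reads). The 5 synonymous sites were p.Pro217Pro, p.Leu220Leu, p.Val291Val, p.Ala436Ala and p.Ser455Ser. Over the 7 sites the variant share ran from 43.5% to 59.8% in marrow and from 39.9% to 53.8% in ear, so both tissues lay near the level of a heterozygous site and overlapped. Variant reads fell on both strands (53.4% forward, against 51.9% of the reference reads), and mapping quality stayed at 42 throughout. From 57 to 60 Mb of that chromosome mouse 54 held 121 shared single nucleotide sites, while mice 108 and 136 held 3 each. The choice of that interval came after its values were seen. Protein-altering sites were 2 of the 16 shared member sites of mouse 54, beside 7.58% of its shared sites in all genes. They were 0 of 8 in mouse 108, beside 6.70%, and 0 of 9 in mouse 136, beside 6.22%.

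Clec18a and Clec16a showed another pattern. CLEC18A is a secreted lectin, and CLEC16A, despite its name, works in the turnover of mitochondria. In intron 5 of Clec18a, 6 positions within 30 bases, from 111075976 to 111076005 of chromosome 8, carried A to C or G to C changes on the forward strand, and 2 of them were in all 6 lists. At position 111075982 the share came to 48.6% in marrow and 53.8% in ear of mouse 54, 16.7% and 34.6% in mouse 108, and 34.8% and 41.2% in mouse 136. At position 111075988 it came to 49.0% and 50.0%, 18.5% and 33.3%, and 39.0% and 40% in the same order. Ear had the higher share in every animal at both positions, with the marrow of mouse 108 the lowest sample at each. All 307 variant reads of the 6 positions lay on the forward strand, whereas the reference reads were on both, 227 forward and 309 reverse. Mapping quality ran from 36 to 42, with a median of 38. In intron 12 of Clec16a, 4 positions within 16 bases, from 10614290 to 10614305 of chromosome 16, carried A to C changes or, at 10614305, a G to A change. All 108 variant reads there lay on the forward strand, with a mapping quality of 35 to 39. The reference reads were mostly forward too, 131 forward and 21 reverse, so the strands separate the alleles less clearly than in Clec18a.

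Variant reads on a single strand were common enough over the exome to be set beside this. Among shared single nucleotide sites with at least 3 reference reads on each strand and at least 5 variant reads, 9.72% to 13.9% of the sites of mice 54 and 108 and 28.6% to 31.5% of those of mouse 136 had all variant reads on 1 strand. Of the member sites that met those conditions, 5 of 12 did so in each tissue of mouse 54, 1 of 2 in the marrow and 2 of 3 in the ear of mouse 108, and 2 of 2 in each tissue of mouse 136. Every such member site lay in Clec18a. What produced the split between strands is not tested here.

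**Figure D3:**
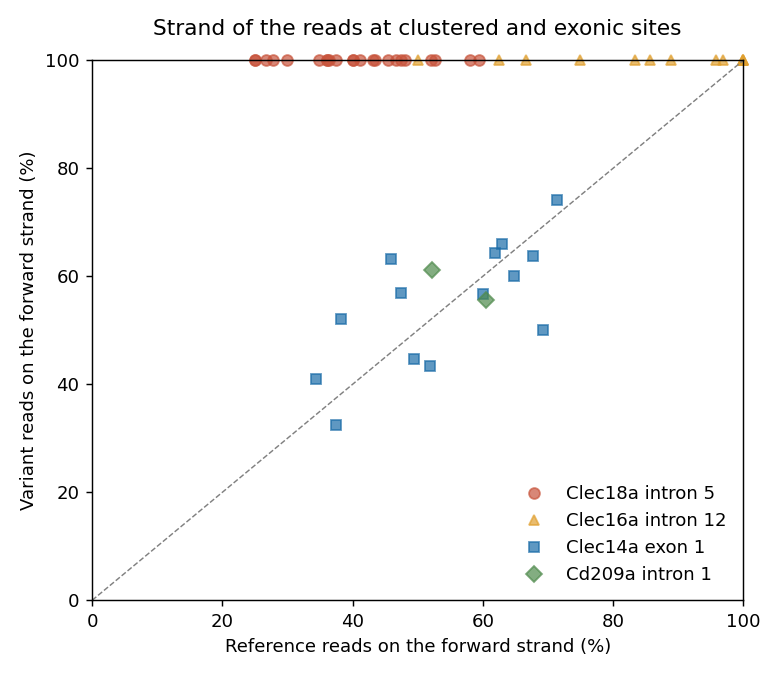
Share of variant reads on the forward strand (vertical axis, percent) against the share of reference reads on the forward strand (horizontal axis, percent), with a point for each site and sample and a dashed line where both are equal. All points of Clec18a intron 5 and Clec16a intron 12 lie at 100% on the vertical axis, while the points of Clec14a and Cd209a scatter about the line.

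Marrow and ear were then compared at each shared site, to see whether either tissue carried more of a variant. Within each animal every shared site with at least 10 reads in both tissues entered a two-sided Fisher's exact test with Benjamini-Hochberg adjustment over all such sites. Each of these tests compares the reads of 2 libraries, since an animal gave a single library of each tissue. The sites tested lay inside or outside genes. Of all of them, 11 of 31835 (0.0346%) passed an adjusted p of 0.05 in mouse 54. In mouse 108 it was 16 of 48977 (0.0327%), and in mouse 136 it was 2 of 11026 (0.0181%). Of the 31 member sites tested, 0 passed, and 0 had an unadjusted p under 0.05, where 6.22% to 8.41% of all sites did. The 31 count a site once in each animal, and the sites of Clec14a and of Clec18a lie close together. They are therefore not independent, and too few to set against that share. The lowest p belonged to p.Ile349Val of Clec14a, 11.9 percentage points higher in marrow (95% Newcombe interval 0.28 to 22.9), with an exact p of 0.058 and an adjusted p of 0.62. At the neighbouring p.Val291Val, the Clec14a site with the most reads, the difference came to 1.9 points (interval -7.6 to 11.4), and for Cd209a in mouse 108 it came to 3.2 points (interval -4.8 to 11.2).

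**Figure D4:**
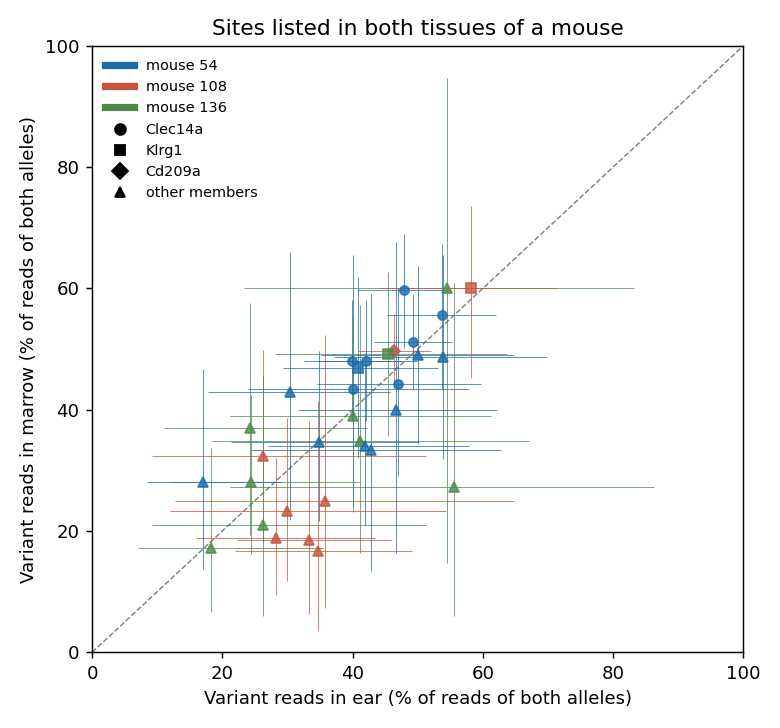
Variant reads as a percent of the reads of both alleles in marrow (vertical axis) against ear (horizontal axis), with 95% Clopper-Pearson intervals. The 33 points are member sites listed in both tissues of an animal, counted once in each animal. Colours are the animals, and the dashed line marks equal shares: Clec14a, Klrg1 and Cd209a lie between 39.9% and 60.0% in both tissues, and other members reach down to 16.7%.

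The 4 member sites of all 6 lists were also tested over the animals together, with an exact conditional test that keeps each animal as a block. Of all sites tested in this way, inside or outside genes, 1 of 4444 (0.0225%) passed. None of the 4 member sites did. For Klrg1, marrow exceeded ear by 3.8 ± 2.1 percentage points (SD, n = 3), with the higher value in 3 of 3 animals, with a common odds ratio of 1.17, an exact p of 0.56 and an adjusted p of 1. For Clec18a at position 111075982, marrow fell below ear by 9.8 points on average (difference -9.8 ± 7.0, SD, n = 3) and lower in 3 of 3 animals, with an exact p of 0.21 and an adjusted p of 0.83. At position 111075988 the difference averaged -5.6 ± 8.0 points, and at the Clec4f repeat it averaged 1.8 ± 10.4 points. With the reads summed over animals and no block, 8 of the 4444 sites passed, none of them a member.

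The authors also deposited calls of somatic changes, made by comparing the marrow with the ear of an animal. In the authors' deposited table VarScan2 made 1 somatic call in a member gene, out of 2484 in genes. The call is a C to T change in Clec4a2 in mouse 136, at position 123114340 of chromosome 6, with 4 of 13 reads in marrow and 0 of 15 in ear, which allows a share of up to 20%. The somatic p in the authors' deposited table is 0.035. The annotation put the site in an intron of a transcript reaching 8.35 kb beyond the RefSeq span of the gene, and the marrow list held 2 further changes within 3 bases of it. VarScan2 called loss of heterozygosity in 0 members. The share of all genes with such a call was not counted, so nothing is read from that 0. Over all genes, 9.07% had a VarScan2 somatic call, against 1 of the 47 members (2.13%).

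Strelka made 9 calls in 7 of the 47 members (14.9%), 3 in each animal, where 28.1% of all genes had a call. Cd209e is a member only through such a call. Strelka reports a quality and no reads. In the authors' deposited table the call of highest quality among them is a stop, p.Gly328*, in exon 7 of Clec18a in mouse 108, with a quality of 46. A further Clec18a change, p.Ala501Val in exon 12, stood in the calls of mouse 136 with a quality of 15 in the authors' deposited table. Cd209a had p.Gln57Lys in exon 3 and an intronic change 11 bases before exon 6 in mouse 54, with qualities of 15 and 31 in the authors' deposited table. Cd209e had a change 3 bases before an exon in the same animal, Klrk1 and Clec16a had an intronic and a 3′ UTR change in mouse 108, and Clec2g and Clec4n had intronic changes in mouse 136. The SAMtools list of the marrow held only the Clec4n call, with 4 of 37 reads (10.8%). Over all genes it held 794 of 6324 Strelka calls. C to A changes were 4 of the 9 calls, beside 41.4% of the Strelka single nucleotide calls in genes.

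The genes that pass on the receptors' signals, or encode their ligands, formed a list of 22, and 16 of them had a site in an all-variant list, beside 95.6% of the 18232 genes, which unlike the 22 were all taken from the lists. A shared site appeared in 6, beside 44.6% of all genes: Card9 (the adaptor below Dectin-1 and Dectin-2) with 3, 1 and 0 in mice 54, 108 and 136, Ptpn11 (a phosphatase recruited by inhibitory receptors) with 1, 2 and 2, Inpp5d (the phosphatase SHIP-1) with 0, 15 and 0, Vav1 with 2, 2 and 1, Plcg2 with 0, 1 and 0, and Ncr1 (NKp46) with 1, 0 and 0. The receptor adaptors Tyrobp (DAP12) and Hcst (DAP10) and the kinases Syk and Zap70 had listed sites but no shared one. Fcer1g, the Fc receptor gamma chain, and the NKG2D ligand genes Raet1a to Raet1d and H60b had none in the all-variant lists. Plcg2 held the 1 protein-altering site of these genes. In the authors' deposited table VarScan2 made 3 somatic calls in H60b, 3 in Raet1e and 1 each in Ptpn11 and Plcg2. Strelka made 3 in Inpp5d, 2 in Plcg2 and 1 each in Zap70 and Ptpn11 in the authors' deposited table. Over all genes, 9.07% had a VarScan2 somatic call and 28.1% a Strelka call. The all-variant lists held no site in H60b beside its VarScan2 calls.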

How the data were processed

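Per the labels' protocols, a 50 Mb mouse exome kit was used and the mean depth was 100. Bowtie2, SAMtools and FastQC are the tools, and mm9 and GRCm38 the builds, that appear in the submitters' processing notes. Per the file headers, the authors deposited SnpEff-annotated variant lists: SAMtools lists with read counts of both alleles by strand and a mapping quality, 1 per sample, VarScan2 lists with read counts of both tissues and a somatic p-value, and Strelka lists with a quality only. The lowest depth of a listed site was 11. Of 126 member sites, 123 lay inside the RefSeq GRCm38.p6 span of their gene, and all 47 member symbols matched RefSeq.

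A site was a position with its reference and variant alleles. A member annotation excluded upstream, downstream and intergenic ones. Shares are variant reads over reads of both alleles, with Clopper-Pearson intervals. Those intervals, and the limit from a count of 0 (3 counts), cover counting error only, and PCR copies of a molecule are not independent. Fisher's exact tests and the exact conditional test with animals as strata (scipy 1.17.1, numpy 2.4.6) ran over all sites with at least 10 reads in each tissue and were tested on simulated data. Marrow and ear of 1 number are the same animal, and their deviations from the tissue mean correlated over the 4444 sites of all 6 lists (0.15, 0.20 and 0.11 in animals 54, 108 and 136). In VarScan2 lists the column taken as marrow was closer to the marrow list at 440 of 441, 977 of 979 and 263 of 263 sites. The column taken as ear was closer to the ear list at 273 of 277, 325 of 341 and 65 of 71 sites, in the same order of animals.

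Genes were named when they held a high-impact site, a somatic call of high or moderate impact, a site that passed a test or the most shared protein-altering sites, or when they were in a list of main receptors, and otherwise where the text says so. The members and lists were chosen with earlier results of these data known. Alternatives changed the read minimum, mapping quality, kind of site, annotation, adjustment, block and animals.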

Additional observations from a re-analysis of the deposited data

How the results depend on the processing

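Of 53 alternatives, 46 stayed within 1.5 times a count or within 1 SD of a ratio. For the log2 ratio of member sites that SD is 0.64, a wide margin around -0.02. It took in -0.38 with at least 20 reads, 0.30 without animal 54 and -0.34 without animal 136. With at least 20 reads, 26 member genes had an entry in place of 47. Shared protein-altering sites averaged 0.67 per animal, and leaving out each animal gave 0 to 1, with 0 without animal 54, which held both. The single VarScan2 call fell to 0 at a somatic p under 0.01 and to 0 with at least 20 reads in both tissues, and leaving out each animal gave 0 to 1, with 0 without animal 136. Strelka calls fell from 9 to 4 at a quality of at least 30 and to 1 when the marrow list had to hold the call. Without the replicate block the log2 ratio of member sites was -0.06 in place of -0.02, and 0 member sites passed the test over all 6 lists, as with the block. Over all sites tested, inside or outside genes, that test called 8 sites without the block and 1 in the main setting. Without animals 54, 108 and 136 it called 15, 11 and 5. The test within animal 54 called 17 sites at 20 reads in place of 11. In each of these settings 0 member sites passed. A median of 18 reads at member entries limits what could be seen.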
